A study of Homo sapiens with 12 samples.

Results

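The collagen chain genes of A375 cells were examined, that is, the genes whose symbol is COL, a type number, A and a chain number. The symbol alone chose them, and it matched 39 of the 4918 genes analysed here, whose symbols run from A1BG to FAM46B. A375 is an established human melanoma cell line, and all groups share its genotype. The control group was left without treatment, and the other groups received SB-3CT, interferon gamma (IFNγ) or SB-3CT and IFNγ together (SB-3CT+IFNγ) over 24 h, with 3 RNA samples in each of the 4 groups. SB-3CT is a small-molecule inhibitor of the gelatinases MMP2 and MMP9, and IFNγ is a T cell cytokine. The doses used for these samples, and whether the controls received vehicle, are not given in the sources used here. The study describes its experiments as independent repeats, but the labels do not tie the 3 samples of a group to separate cultures, so the p-values measure the spread between these samples.

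Collagens are secreted or membrane-bound proteins in which 3 chains wind into a helix. Each chain carries glycine at regular steps along the helix, and chains of the same type, often from different genes, must meet in the endoplasmic reticulum before the helix can fold. Fibrillar collagens (types I, II, III, V, XI, XXIV and XXVII) form the ropes of connective tissue, type IV forms the sheet of basement membranes, type VI forms beaded filaments at the cell surface, and FACIT collagens (types IX, XII, XIV, XVI and XIX to XXII) sit on the surface of fibrils or at tissue borders. Gelatinases cleave denatured collagen and type IV collagen, and in skin the basement membrane is the sheet that melanoma cells cross when they invade. The values below are FPKM (fragments mapped to a gene, divided by transcript length and by the mapped fragments of the library), which is a level per length and lets genes be compared. Changes are differences of mean log2(FPKM + 1), the scale on which the values were deposited, and on this scale the changes of low genes appear smaller than they are. A gene was called changed at an adjusted p under 0.05 in limma, with p adjusted over all 4918 genes.

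The number of reads per library is unknown. The steps of the lowest values gave relative depths of 87.2% to 150.1% of the control mean, and 3978 genes were above 0 in all 12 libraries. Of 7 melanocyte and melanoma markers, 4 exceeded a mean of 1 FPKM (CD63, ERBB3, CSPG4 and EDNRB), while DCT, BIRC7 and CAPN3 did not, and the sum of the 7 ranged from 682.7 to 814.6 FPKM over all libraries, most of it from CD63. ERBB3 averaged 57.1 ± 0.64 FPKM (SD, n = 3) in the controls, 45.5 ± 2.4 under SB-3CT, 43.6 ± 1.9 under IFNγ and 30.9 ± 1.6 under SB-3CT+IFNγ. In the same order, CSPG4 averaged 48.5 ± 0.47, 41.9 ± 2.1, 37.1 ± 0.68 and 27.7 ± 1.7 FPKM. EDNRB averaged 5.83 ± 0.35, 4.57 ± 0.50, 6.67 ± 0.15 and 4.99 ± 0.25 FPKM. CD63 averaged 655.3 ± 42.3, 698.1 ± 26.5, 619.5 ± 21.6 and 674.6 ± 23.7 FPKM. Thus, on the deposited values, ERBB3 and CSPG4 were lowest with SB-3CT+IFNγ, and EDNRB and CD63 were not. Of 4 fibroblast markers only CFD exceeded 1 FPKM, and the summed fibroblast list lay between 1.34 and 2.35 FPKM. None of the 3 endothelial, 2 epithelial and 3 immune markers in the table did. CXCL10, an IFNγ-induced chemokine, averaged 0.02 FPKM in the controls and 81.8 FPKM with IFNγ, and CD274, which encodes PD-L1, averaged 0.54 and 21.7 FPKM, as the IFNγ labels require.

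The glycine repeat can be read in the coding sequence of each gene, since glycine codons begin with GG. The opening 36 bases of the longest uninterrupted repeat are shown for COL9A3, COL4A2, COL6A1 and COL5A2, the highest chain of each of the types IX, IV, VI and V, from the reference transcripts of GENCODE release 44 on GRCh37, on the coding strand. Capitals mark the glycine codons.

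COL9A3: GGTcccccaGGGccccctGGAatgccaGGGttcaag

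COL4A2: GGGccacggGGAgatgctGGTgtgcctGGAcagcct

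COL6A1: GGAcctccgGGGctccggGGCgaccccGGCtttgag

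COL5A2: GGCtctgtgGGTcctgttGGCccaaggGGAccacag

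These 4 stretches start at codon 181, 782, 257 and 213 of their transcripts. The longest run of glycine triplets counted 339 in COL5A2, 338 in COL5A1, 113 in COL9A3 and COL9A2, 87 in COL6A1 and COL6A2, 66 in COL4A2 and 40 in COL4A1. The fibrillar type V chains thus carry a long unbroken repeat, and the type IV chains carry a repeat that is interrupted many times. COL9A3 lies on chromosome 20 (hg19, 61447596 to 61472511, 32 exons in its reference transcript) and COL5A2 on chromosome 2 (189896624 to 190090038, minus strand, 54 exons), next to COL3A1 (189839099 to 189877472). COL6A1 (47401684 to 47424964, 35 exons) and COL6A2 (47518026 to 47552762, 28 exons) are neighbours on chromosome 21, and COL4A1 (110801310 to 110959504, minus strand, 52 exons) and COL4A2 (110958159 to 111165556, 48 exons) stand head to head on chromosome 13.

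Exactly 14 of the 39 collagen genes exceeded a mean of 1 FPKM over the 12 libraries, a limit that 3177 of the 4918 genes passed. They were COL9A3 at 117.9 FPKM, COL4A2 at 53.1, COL6A1 at 28.7, COL4A1 at 24.4, COL6A2 at 21.9, COL5A2 at 21.9, COL18A1 at 6.56, COL19A1 at 4.35, COL27A1 at 3.13, COL13A1 at 2.68, COL12A1 at 2.15, COL9A2 at 1.70, COL16A1 at 1.69 and COL5A1 at 1.01 FPKM. The 6 highest genes did not overlap the other 8, with a lowest library value of 12.9 FPKM (COL5A2) beside a highest of 7.54 FPKM (COL18A1). In every library these 6 genes held 89.5% to 92.2% of the summed collagen FPKM. COL9A3 alone held 36.8% to 44.1%, and its level was higher than that of 95.8% of all genes in the table. COL6A2 and COL5A2 had nearly the same mean over all libraries, but their order differed between groups, since COL5A2 was higher in each control and COL6A2 in each IFNγ library. Just inside the limit lay COL5A1, which ranged from 0.531 to 1.36 FPKM and lay under 1 FPKM in the 3 SB-3CT+IFNγ libraries. Just outside it lay COL4A5, with 0.643 FPKM.

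**Figure D1:**
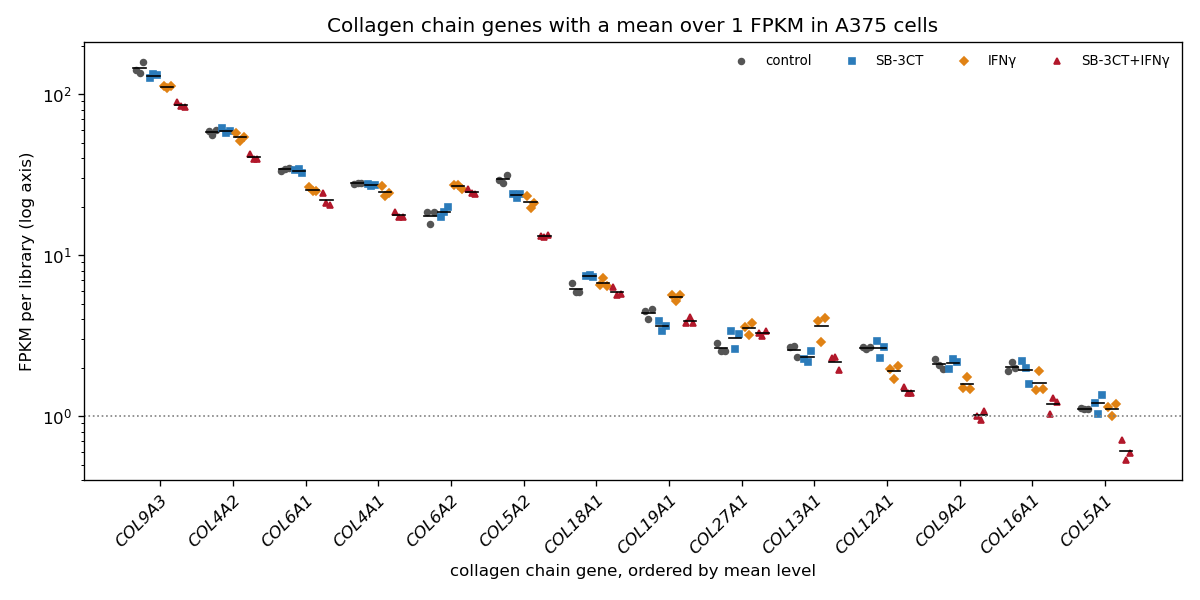
FPKM of the 14 collagen chain genes with a mean over 1 FPKM in A375 cells, on a log axis, with a point for each of 3 libraries per group, short lines at the group means and a dotted line at 1 FPKM. COL9A3 lies above all other chains in every library, and SB-3CT+IFNγ (triangles) lies lowest for most of the higher chains except COL6A2.

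The other 25 collagen genes were low. Of these, 4 had a mean over 0.5 FPKM (COL4A5, COL6A3, COL5A3 and COL7A1), 6 lay between 0.1 and 0.5 FPKM and 15 did not exceed 0.1 FPKM, with a lowest mean of 0.00471 FPKM, and 14 of them were listed at 0 in at least 1 library. The chains of type I and III collagen, the main fibrillar collagens of the dermis, were in this group: COL1A1 ranged from 0.0740 to 0.231 FPKM, COL1A2 was listed at 0 in 6 libraries and COL3A1 in 1. COL3A1 and COL5A2, neighbours on chromosome 2, thus differed greatly in level. COL6A5, COL6A6, COL11A2, COL23A1 and COL28A1 were not analysed here.

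Chains that share a helix were not at equal levels. Type IX collagen is built from COL9A1, COL9A2 and COL9A3 chains in equal numbers, but COL9A3 exceeded COL9A2 by 58.5-fold to 88.7-fold in the 12 libraries, and COL9A1 averaged 0.0641 FPKM and was listed at 0 in 3 libraries. Type V collagen mostly contains more COL5A1 than COL5A2 chains, whereas COL5A2 exceeded COL5A1 by 17.7-fold to 28.4-fold. In type VI collagen a COL6A3 chain accompanies COL6A1 and COL6A2, and COL6A3 averaged 0.600 FPKM. Type IV collagen with the COL4A1 and COL4A2 chains contains more of the former, and COL4A2 exceeded COL4A1 by 2.01-fold to 2.29-fold. These are RNA levels, and how much protein each gave was not measured.

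The summed FPKM of the 39 genes was 340.7 ± 16.6 (SD, n = 3) in the controls, 320.4 ± 2.24 under SB-3CT, 294 ± 9.5 under IFNγ, and 226.3 ± 9.27 under SB-3CT+IFNγ. As a share of the FPKM of all 4918 genes, this was 0.276%, 0.257%, 0.238% and 0.176%. The 3 SB-3CT+IFNγ libraries, at 220.3 to 237 FPKM, lay below every other library, and the 3 IFNγ libraries, at 285.2 to 304.1 FPKM, lay below all libraries without IFNγ. These are sums of the deposited values. With SB-3CT+IFNγ against IFNγ, the median change of all genes over 1 FPKM was negative as well, at -0.20. In that comparison the median change of the 14 collagen genes was 0.05 after removal of each library's trend with transcript length. The sum rests on COL9A3 and the 5 genes after it, and in bulk RNA fewer cells that express a gene and less of its RNA per cell cannot be told apart.

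IFNγ against control asks how the cytokine alone altered the collagen genes. With IFNγ, COL6A1, COL5A2, COL9A3 and COL12A1 fell and COL6A2 and COL27A1 rose among the 14 genes over 1 FPKM. Among the low genes, COL22A1 rose and COL5A3 fell the most on the log2(FPKM + 1) scale. In FPKM, COL14A1 (ratio 0.160) fell further than COL5A3 (ratio 0.474). In all, 11 of the 39 collagen genes were called (28.2%), 4 higher and 7 lower, where 19.5% of all genes were called, 8.46% higher and 11.0% lower, and among genes over 1 FPKM 6 of 14 were called where the background was 25.7%. The groups did not overlap for 21 of 39, where the background was 36.9%. The median change of the 14 genes was -0.14 and that of all genes over 1 FPKM was -0.04. By a fold over 1.5 with an unadjusted p under 0.05, 1 of 39 passed, where the background was 4.76%. Here and below this fold was taken on the log2(FPKM + 1) scale, which low genes pass less easily than a fold of FPKM. COL6A2, with an FPKM ratio of 1.52, and COL5A3, with a ratio of 0.474, did not pass it.

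Within type VI collagen, the COL6A1 and COL6A2 chains moved in opposite directions with IFNγ. The low chain COL6A3 was not called (log2 change -0.0058, adjusted p = 0.971). COL6A1 measured 33.5, 34.3 and 34.5 FPKM in the controls, 33.6, 34.0 and 32.5 under SB-3CT, 26.5, 24.9 and 24.9 under IFNγ, and 24.3, 21.1 and 20.5 under SB-3CT+IFNγ. COL6A2 measured 18.6, 15.6 and 18.4 FPKM in the controls, 17.2, 18.5 and 19.8 under SB-3CT, 27.2, 27.4 and 25.7 under IFNγ, and 25.9, 24.4 and 24.1 under SB-3CT+IFNγ. Every library with IFNγ was thus lower in COL6A1 and higher in COL6A2 than every library without it. COL6A1 fell by 25.4% (log2 change -0.41, SE 0.042, adjusted p = 0.00161) and COL6A2 rose by 52.4% (log2 change 0.58, SE 0.074, adjusted p = 0.00355). In cells that also received SB-3CT the changes were -0.58 (SE 0.068, adjusted p = 0.00166) and 0.41 (SE 0.060, adjusted p = 0.00358). The COL6A2 to COL6A1 ratio within a library was 0.516 ± 0.053 (SD, n = 3) in the controls, 0.555 ± 0.049 under SB-3CT, 1.05 ± 0.040 under IFNγ, and 1.13 ± 0.060 under SB-3CT+IFNγ. A single scaling factor for a library leaves this ratio as it is. Its highest value without IFNγ was 0.609 and its lowest with IFNγ was 1.03.

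**Figure D2:**
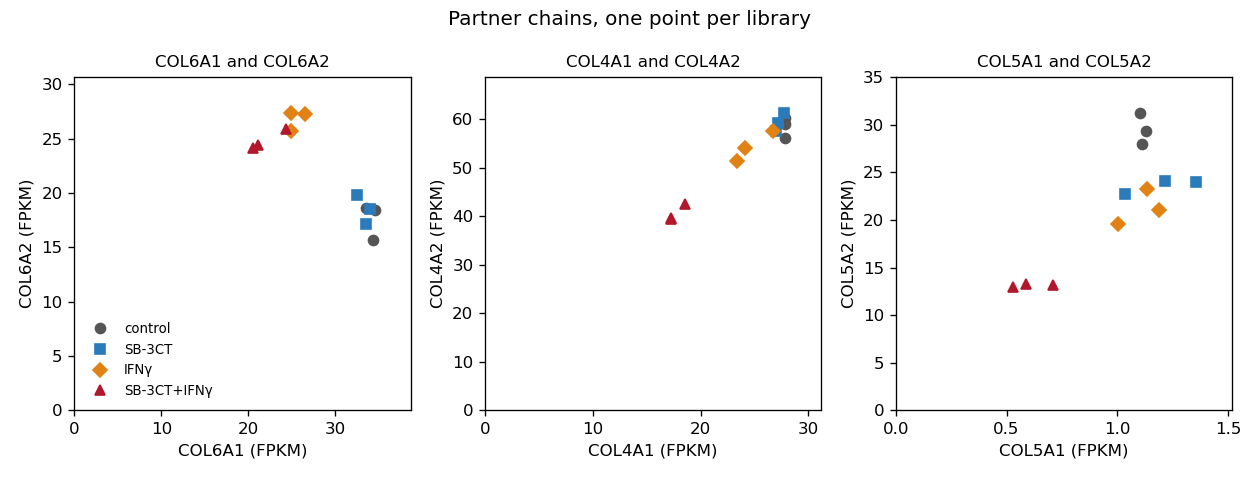
Partner chains plotted against each other in FPKM, with 1 point for each of the 12 libraries. In the COL6A1 and COL6A2 panel the 6 libraries with IFNγ (diamonds and triangles) lie to the upper left of the 6 without it, whereas COL4A1 and COL4A2 lie along a line with SB-3CT+IFNγ at its lower end, and COL5A2 sets the controls apart from the SB-3CT and IFNγ libraries while COL5A1 overlaps among these 3 groups.

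The sequence just upstream of COL6A2 is shown because this gene moved against its neighbour. It is the 250 bases before the RefSeq start on GRCh38.p14, chr21:46097862-46098111, plus strand, with capitals for 1 TATAAA and 4 GGGCGG motifs, which were searched on both strands. CCAAT and TTCNNNGAA (N for any base) were searched as well, with 0 matches in this window.

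COL6A2: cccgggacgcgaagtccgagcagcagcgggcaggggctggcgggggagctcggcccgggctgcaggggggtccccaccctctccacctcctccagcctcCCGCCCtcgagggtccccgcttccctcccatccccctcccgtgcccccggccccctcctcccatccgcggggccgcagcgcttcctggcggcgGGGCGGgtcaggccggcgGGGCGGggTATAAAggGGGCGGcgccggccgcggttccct

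Of 35114 such RefSeq windows, 10.7% held TATAAA and 42.6% GGGCGG, and of the 28 collagen genes with a window 6 held TATAAA and 18 GGGCGG. TTCNNNGAA was in 6.6% of all windows and in 1 of the 28. A match in these letters is a description and not a binding site.

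COL5A2, a chain of the fibril-starting type V collagen, was the member called in all 4 pairwise comparisons. It measured 29.3, 28.0 and 31.3 FPKM in the controls, 24.1, 22.7 and 24.0 under SB-3CT, 23.2, 19.6 and 21.1 under IFNγ, and 13.2, 12.9 and 13.3 under SB-3CT+IFNγ. The controls were highest and the SB-3CT+IFNγ libraries lowest, without overlap with any other group, while SB-3CT and IFNγ libraries overlapped. With IFNγ it fell by 27.9% (log2 change -0.46, SE 0.073, adjusted p = 0.00875). Its partner COL5A1 measured 1.13, 1.11 and 1.10 FPKM in the controls and 1.13, 1.00 and 1.19 with IFNγ, with no call (log2 change 0.00 to 2 decimals, adjusted p = 0.975). COL5A3, a further type V chain, fell from 0.875, 0.923 and 0.915 FPKM to 0.558, 0.335 and 0.391 FPKM (log2 change -0.42, SE 0.064, adjusted p = 0.00732).

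COL9A3, the chain with the highest level, measured 142.1, 135.0 and 157.6 FPKM in the controls, 125.2, 132.5 and 131.8 under SB-3CT, 111.9, 109.4 and 112.1 under IFNγ, and 89.3, 84.4 and 83.7 under SB-3CT+IFNγ. The 4 groups did not overlap, with the controls highest and SB-3CT+IFNγ lowest. With IFNγ it fell by 23.3% (log2 change -0.38, SE 0.062, adjusted p = 0.00949), whereas the lower level with SB-3CT alone was not called (-0.15, SE 0.062, adjusted p = 0.146). COL12A1, another FACIT chain, averaged 2.65 ± 0.048 FPKM (SD, n = 3) in the controls and 1.90 ± 0.18 with IFNγ (log2 change -0.34, adjusted p = 0.0219), but this call was lost without control 1, 2 or 3 (adjusted p of 0.0747, 0.0662 and 0.0801). COL9A2 averaged 2.10 ± 0.15 and 1.57 ± 0.15 FPKM and was not called (-0.27, adjusted p = 0.0524).

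COL27A1, a fibrillar chain, averaged 2.65 ± 0.19 FPKM (SD, n = 3) in the controls and 3.54 ± 0.31 with IFNγ, and was called higher (log2 change 0.31, adjusted p = 0.0429), a call lost without any of the 3 controls or without IFNγ library 1 or 3 (adjusted p up to 0.135). COL13A1 and COL19A1 were also higher with IFNγ in each library, without a call on the deposited values. COL13A1, a transmembrane collagen of cell contacts, averaged 2.58 ± 0.22 and 3.63 ± 0.63 FPKM (0.36, adjusted p = 0.0854), and COL19A1 averaged 4.39 ± 0.33 and 5.49 ± 0.29 FPKM (0.27, adjusted p = 0.0536), and median-ratio scaling called both (adjusted p = 0.0391 and 0.0132). The type IV chains COL4A1 and COL4A2 were not called either, with changes of -0.17 (adjusted p = 0.0883) and -0.11 (adjusted p = 0.238), but after removal of each library's trend with transcript length both were called lower (-0.25, adjusted p = 0.00432, and -0.20, adjusted p = 0.00944). COL18A1, whose C-terminal fragment is endostatin, changed by 0.10 (adjusted p = 0.397).

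COL22A1, a FACIT chain best known from muscle and tendon borders, had the largest IFNγ change of all 39 genes although its mean over all libraries was only 0.367 FPKM. It measured 0.0105, 0.0207 and 0 FPKM in the controls, 0.00784, 0 and 0 under SB-3CT, 0.937, 0.902 and 0.916 under IFNγ, and 0.655, 0.550 and 0.402 under SB-3CT+IFNγ. It was thus near 0 in the 6 libraries without IFNγ and at intermediate values with SB-3CT+IFNγ, with no overlap among these 3 levels. The IFNγ change was 0.92 (SE 0.028, adjusted p = 8.09e-06), and 3.21 on a scale with an offset of 0.1 FPKM in place of 1. Its level stayed under 1 FPKM in every library.

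Of the remaining low genes called with IFNγ, COL1A1, a chain of type I collagen, measured 0.122, 0.0740 and 0.0925 FPKM in the controls and 0.178, 0.192 and 0.231 with IFNγ (log2 change 0.13, adjusted p = 0.0244). COL14A1, a FACIT chain, measured 0.206, 0.130 and 0.249 FPKM in the controls, 0.0488, 0.0434 and 0.0602 under SB-3CT, 0.0267, 0.0381 and 0.0288 under IFNγ, and 0, 0 and 0.0110 under SB-3CT+IFNγ. The controls were the highest of the 4 groups and the groups did not overlap. The change with IFNγ was -0.21 (adjusted p = 0.0135). COL24A1, a fibrillar chain, fell by 0.08 on the log2 scale (adjusted p = 0.0302). The call of COL1A1 was lost without control 2, control 3 or IFNγ library 3, that of COL14A1 without control 1 or IFNγ library 3, and that of COL24A1 without any of 5 libraries.

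**Figure D3:**
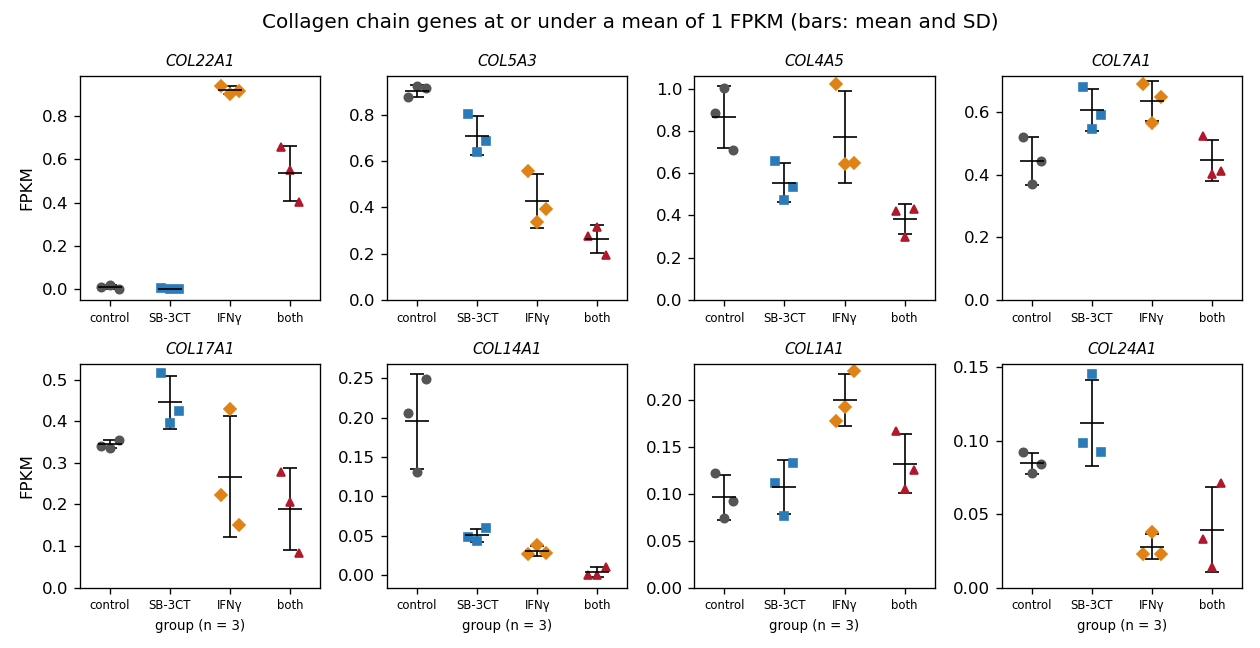
FPKM of 8 collagen chain genes with a mean at or under 1 FPKM, with a point for each library and bars for the mean and SD of 3 libraries, where "both" is SB-3CT+IFNγ. COL22A1 is near 0 in both groups without IFNγ and between 0.902 and 0.937 FPKM with IFNγ, and COL5A3 and COL14A1 are highest in the controls and lowest with SB-3CT+IFNγ.

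SB-3CT against control asks what the inhibitor did on its own. Few collagen genes changed: 2 of 39 were called (5.13%), both lower, where 12.2% of all genes were called, 5.37% higher and 6.87% lower, and 1 of the 14 genes over 1 FPKM was called where the background was 17.2%. The groups did not overlap for 12 of 39, where the background was 33.9%. COL5A2 fell by 20.1% (log2 change -0.31, SE 0.053, adjusted p = 0.0177) and COL14A1 fell from the levels given above (-0.18, SE 0.040, adjusted p = 0.0311). The COL5A2 call was lost without any of the 3 controls or SB-3CT library 2 or 3 (adjusted p of 0.0561 to 0.0741) and after removal of each library's trend with transcript length (-0.18, adjusted p = 0.0836), and the COL14A1 call without control 1 or 3 or any SB-3CT library (adjusted p of 0.0613 to 0.107). The median change was -0.02 for the 14 genes and -0.03 for all genes over 1 FPKM. By a fold over 1.5 with an unadjusted p under 0.05, 0 of 39 passed, where the background was 0.996%.

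Other chains with SB-3CT alone stayed near their control levels or moved without a call. COL18A1 measured 6.72, 5.93 and 5.90 FPKM in the controls and 7.42, 7.54 and 7.31 with SB-3CT, without overlap (0.23, SE 0.069, adjusted p = 0.0693). It was called higher under each of the other 3 scalings, at 0.27 with median ratios, 0.31 with quantiles and 0.33 after removal of the length trend (adjusted p = 0.0430, 0.0328 and 0.0267). COL19A1 averaged 4.39 ± 0.33 (SD, n = 3) and 3.63 ± 0.27 FPKM (-0.22, adjusted p = 0.133). COL4A1 averaged 27.9 ± 0.020 and 27.3 ± 0.42 FPKM (-0.03, adjusted p = 0.684) and COL4A2 58.4 ± 2.1 and 59.4 ± 1.8 FPKM (0.02, adjusted p = 0.775).

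SB-3CT+IFNγ against IFNγ asks what the inhibitor did in stimulated cells, the comparison in which the study looked for pathways. All 14 genes over 1 FPKM had a lower mean with SB-3CT+IFNγ on the deposited values, whereas 4 of the 14 changes were positive with median-ratio scaling, 4 with quantile normalization and 9 after removal of the length trend. On the deposited values 9 were called lower, among them the type IV pair, both type V chains over the limit, COL9A2 and COL9A3. Of all 39, 14 were called (35.9%) and all of these were lower, where 37.9% of all genes were called, 6.41% higher and 31.5% lower. Among genes over 1 FPKM, 9 of 14 were called (64.3%), where the background was 52.0%. By a fold over 1.5 with an unadjusted p under 0.05, 1 of 39 passed, where the background was 7.46%. The groups did not overlap for 22 of 39, where the background was 49%. The median change of the 14 genes was -0.36 and that of all genes over 1 FPKM was -0.20. On the deposited values the melanocyte markers ERBB3 and CSPG4 were lowest in the same SB-3CT+IFNγ libraries, whereas EDNRB and CD63 were not (values above). The part of these markers in the collagen changes was not tested.

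Transcript length moved with this comparison. Among genes over 1 FPKM the median change was 0.08 in the shortest of 4 equal groups by length (transcripts up to 1869 bases) and -0.41 in the longest (from 4870 bases), and the reference transcripts of the 14 collagen genes had a median length of 5932 bases against 2957 for all genes. When each library's trend with transcript length was removed, the median change was 0.05 for the 14 genes and -0.01 for all genes over 1 FPKM, 3 of 39 collagen genes were called, where 18.6% of all genes with a length were: COL5A2 and COL9A3 stayed called lower (-0.16, adjusted p = 0.0459, and -0.18, adjusted p = 0.0306) and COL27A1 was called higher (0.34, adjusted p = 0.0170). With scaling by median ratios or quantiles, 5 of the 14 were called lower under either, and the medians were -0.14 and -0.13. Whether the trend with length came from the cells or from the libraries was not tested, so the values that follow are given as deposited, with the scalings that ended a call.

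**Figure D4:**
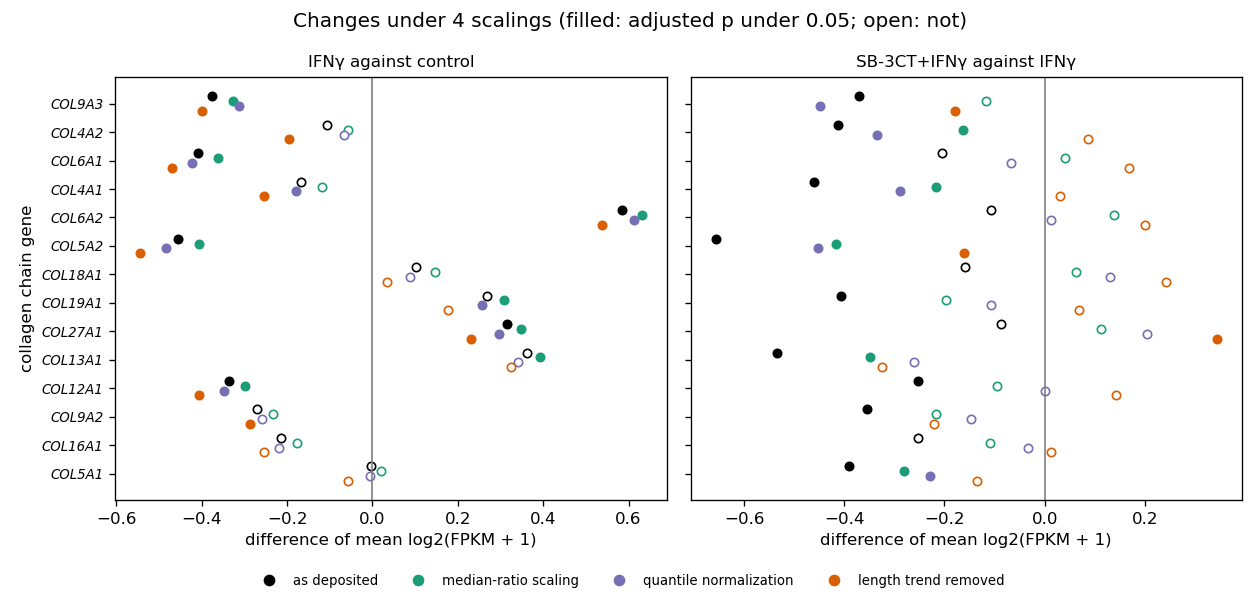
Change of the 14 collagen chain genes over 1 FPKM with IFNγ (left) and with SB-3CT+IFNγ against IFNγ (right), as differences of mean log2(FPKM + 1) under 4 scalings, with filled points for an adjusted p under 0.05. The points of each gene lie close together on the left, with COL6A2 above 0.5 and COL6A1, COL5A2 and COL9A3 below -0.3 under each scaling, while on the right many genes cross 0 after removal of the trend with length and COL5A2 is the member called lower under all 4.

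COL5A2 had the largest change on the log2(FPKM + 1) scale (-0.66, SE 0.070, adjusted p = 0.00207), and was called lower in every alternative run. In FPKM it fell by 38.4%, a ratio of 0.616. Among the genes over 1 FPKM, COL5A1 (ratio 0.550) and COL13A1 (ratio 0.601) fell further in FPKM. So did low genes such as COL2A1 (ratio 0.367) and COL4A5 (ratio 0.495). COL9A3 fell by 22.8% (-0.37, SE 0.048, adjusted p = 0.00236), a call that ended with median-ratio scaling (-0.12, adjusted p = 0.121). COL9A2 fell from 1.57 ± 0.15 (SD, n = 3) to 1.01 ± 0.061 FPKM (-0.35, SE 0.074, adjusted p = 0.00884) and COL5A1 from 1.11 ± 0.094 to 0.610 ± 0.092 FPKM (-0.39, SE 0.068, adjusted p = 0.00475). Neither stayed called after removal of the length trend, at -0.22 and -0.13, and the COL9A2 call also ended with median ratios and quantiles (-0.22 and -0.15). The members of type V collagen thus all had lower means with SB-3CT+IFNγ, COL5A3 included, which averaged 0.428 ± 0.12 and 0.263 ± 0.061 FPKM without a call.

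The basement membrane chains COL4A1 and COL4A2 fell together. COL4A1 measured 27.8, 27.9 and 27.9 FPKM in the controls, 27.8, 27.0 and 27.2 under SB-3CT, 26.7, 23.4 and 24.2 under IFNγ, and 18.5, 17.3 and 17.3 under SB-3CT+IFNγ. COL4A2 measured 59.0, 56.1 and 60.1 FPKM in the controls, 61.3, 57.6 and 59.2 under SB-3CT, 57.5, 51.3 and 54.0 under IFNγ, and 42.5, 39.4 and 39.5 under SB-3CT+IFNγ. The SB-3CT+IFNγ libraries lay below all 9 others for both genes. Against IFNγ, COL4A1 fell by 28.5% (log2 change -0.46, SE 0.066, adjusted p = 0.00287) and COL4A2 by 25.4% (-0.41, SE 0.060, adjusted p = 0.00291). Both calls held with median-ratio scaling and quantile normalization, but after removal of the trend with length the changes were 0.03 (adjusted p = 0.748) and 0.09 (adjusted p = 0.302). The COL4A2 to COL4A1 ratio was 2.10 ± 0.075 (SD, n = 3) in the controls, 2.17 ± 0.035 under SB-3CT, 2.19 ± 0.040 under IFNγ, and 2.29 ± 0.0049 under SB-3CT+IFNγ. COL4A5, a type IV chain encoded on chromosome X, was called lower as well, from 1.02, 0.644 and 0.650 FPKM to 0.419, 0.299 and 0.428 FPKM (-0.35, adjusted p = 0.0190), a call lost without any of the 3 SB-3CT+IFNγ libraries, with quantile normalization (-0.24, adjusted p = 0.0635) and after removal of the trend (-0.17, adjusted p = 0.172).

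The segment between the starts of COL4A1 and COL4A2 is shown because it lies upstream of both genes, which moved together. It holds 126 bases on GRCh38.p14, from RefSeq, chr13:110307158-110307283, written on the plus strand on which COL4A2 is read, and the capitals mark a CCAAT and a GGGCGG motif. TATAAA and TTCNNNGAA had 0 matches in it.

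COL4A1-COL4A2: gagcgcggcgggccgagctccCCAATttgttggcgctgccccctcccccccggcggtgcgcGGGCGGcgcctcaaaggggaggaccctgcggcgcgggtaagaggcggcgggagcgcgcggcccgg

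CCAAT, searched on both strands, was in 32.0% of all 250-base RefSeq windows and in 9 of 28 collagen windows. In GENCODE the annotated spans of COL4A1 and COL4A2 overlap at their starts on opposite strands, and whether the authors' counting used strand is not given in the sources used here.

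COL13A1 and COL19A1 had means that were highest with IFNγ and somewhat under those of the controls with SB-3CT+IFNγ. COL13A1 measured 2.68, 2.74 and 2.34 FPKM in the controls, 2.26, 2.18 and 2.54 under SB-3CT, 3.92, 2.90 and 4.06 under IFNγ, and 2.28, 2.32 and 1.94 under SB-3CT+IFNγ. COL19A1 measured 4.497, 4.01 and 4.66 FPKM in the controls, 3.90, 3.37 and 3.61 under SB-3CT, 5.66, 5.16 and 5.65 under IFNγ, and 3.79, 4.14 and 3.77 under SB-3CT+IFNγ. For both genes the 3 IFNγ libraries were the highest of all 12. Against IFNγ, COL13A1 fell by 39.9% (log2 change -0.53, SE 0.12, adjusted p = 0.0123) and COL19A1 by 29.0% (-0.41, SE 0.079, adjusted p = 0.00668). The COL13A1 call was lost without IFNγ library 1 or 3 or SB-3CT+IFNγ library 3, and neither was called with quantile normalization (-0.26 and -0.11) or after removal of the length trend (-0.33 and 0.07). The COL19A1 call ended with median ratios as well (-0.20, adjusted p = 0.0508).

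The last chain over 1 FPKM called in this comparison was COL12A1 (-0.25, adjusted p = 0.0404), a call lost without any of 5 libraries and under each of the other 3 scalings (-0.10 with median ratios, 0.00 to 2 decimals with quantiles, 0.14 after removal of the trend). Among the low genes, COL22A1 fell from the IFNγ level given above (-0.32, SE 0.070, adjusted p = 0.0100), COL2A1, the cartilage fibril chain, averaged 0.215 ± 0.030 and 0.0790 ± 0.039 FPKM (SD, n = 3; -0.17, adjusted p = 0.00997), and COL7A1, the anchoring-fibril chain, averaged 0.636 ± 0.064 and 0.447 ± 0.067 FPKM (-0.18, adjusted p = 0.0387). COL8A2, a short-chain network collagen, lay under 0.1 FPKM in every library and was called at -0.08 (adjusted p = 0.0445). None of the low genes was called after removal of the trend with length, where COL22A1 was at -0.12, COL2A1 at -0.12, COL7A1 at 0.03 and COL8A2 at -0.06. The calls of COL22A1, COL7A1 and COL8A2 also ended with median ratios and quantiles.

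SB-3CT+IFNγ against SB-3CT gives the IFNγ response of cells that also received the inhibitor, and it shares no samples with IFNγ against control. It called 17 of 39 collagen genes (43.6%), 2 higher and 15 lower, where 40.5% of all genes were called, 7.85% higher and 32.7% lower. Among the 14 genes over 1 FPKM it called 11, where the background was 54.4%, and their median change was -0.50 beside -0.21 for all genes over 1 FPKM. The groups did not overlap for 22 of 39, where the background was 51.7%, and by a fold over 1.5 with an unadjusted p under 0.05, 5 of 39 passed, where the background was 5.65%. On the log2(FPKM + 1) scale COL5A2 fell the most (-0.80, SE 0.039, adjusted p = 0.000102). Next came COL9A2 (-0.64, SE 0.065, adjusted p = 0.00112) and COL4A1 (-0.60, SE 0.041, adjusted p = 0.000320). They were followed by COL9A3 (-0.59, SE 0.041, adjusted p = 0.000331). The order differed in FPKM. Among genes over 1 FPKM the lowest ratios were those of COL9A2 (0.474), COL5A1 (0.508), COL12A1 (0.541) and COL5A2 (0.556). COL4A1 and COL9A3 had ratios of 0.648 and 0.661. The low genes COL14A1 (0.072), COL24A1 (0.350), COL5A3 (0.370) and COL17A1 (0.425), called lower, had smaller ratios than any of these. COL6A2 (0.41) and COL22A1 (0.61, SE 0.060, adjusted p = 0.00104) were the 2 called higher.

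Of these 17 calls, 11 kept an adjusted p under 0.05 in every alternative fit that included the gene: COL4A1, COL4A2, COL5A1, COL5A2, COL5A3, COL6A1, COL6A2, COL9A2, COL9A3, COL12A1 and COL22A1. The low genes COL5A3 and COL22A1 were not in the fit of genes with a mean of at least 1 FPKM. Of these 11, 5 also passed the fold over 1.5 on the log2(FPKM + 1) scale, namely COL4A1, COL5A2, COL9A2, COL9A3 and COL22A1. COL5A3 fell from 0.804, 0.637 and 0.688 FPKM with SB-3CT to 0.277, 0.316 and 0.195 FPKM with SB-3CT+IFNγ (-0.44, SE 0.055, adjusted p = 0.00216). COL16A1, a FACIT chain, averaged 2.02 ± 0.13 FPKM (SD, n = 3) in the controls, 1.93 ± 0.32 under SB-3CT, 1.61 ± 0.25 under IFNγ, and 1.19 ± 0.14 under SB-3CT+IFNγ. It was called here alone (-0.42, adjusted p = 0.0196), a call lost without any of 4 libraries and under each of the other 3 scalings (-0.27 with median ratios, -0.30 with quantiles, -0.26 after removal of the length trend, adjusted p up to 0.0965). COL18A1 fell from 7.42 ± 0.12 (SD, n = 3) with SB-3CT to 5.91 ± 0.40 FPKM (-0.29, adjusted p = 0.0122), a call that ended under median-ratio scaling, quantile normalization and removal of the length trend (-0.06, -0.09 and -0.05). COL6A3 (-0.20, adjusted p = 0.0202), COL17A1, a hemidesmosome chain (-0.28, adjusted p = 0.0188), COL14A1 (-0.07, adjusted p = 0.0192) and COL24A1 (-0.10, adjusted p = 0.0435) made up the rest, and each of these 4 calls was lost without at least 1 library. After removal of the length trend COL6A3 (-0.09, adjusted p = 0.128), COL17A1 (-0.24, adjusted p = 0.0633) and COL24A1 (-0.09, adjusted p = 0.128) were not called, nor were they with median ratios, while COL14A1 stayed called. COL19A1 and COL27A1, not called as deposited (0.08 and 0.07), were called higher after that removal (0.34, adjusted p = 0.00825, and 0.32, adjusted p = 0.0230).

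**Figure D5:**
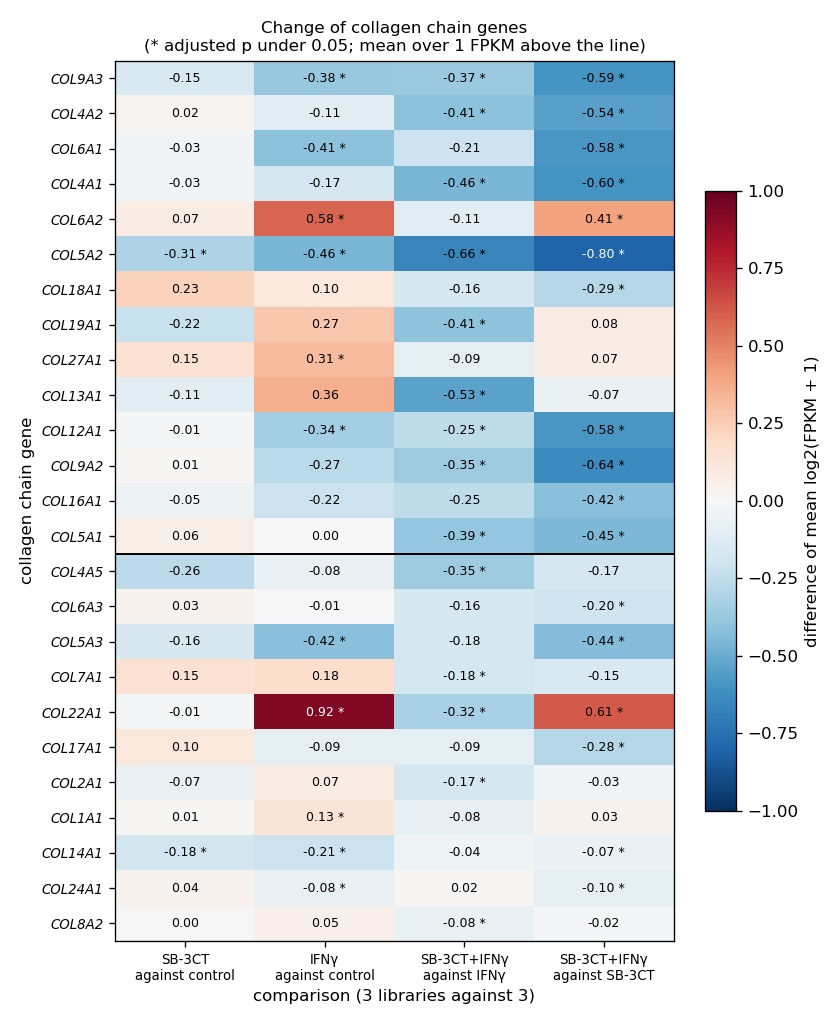
Differences of mean log2(FPKM + 1) in the 4 pairwise comparisons for the 14 collagen chain genes over 1 FPKM (above the line) and for the 11 lower genes called in at least 1 of them, with red for higher, blue for lower and a star for an adjusted p under 0.05. COL5A2 carries a star in all 4 columns, the SB-3CT column has 2 stars, and COL6A2 and COL22A1 are the members called higher in both columns that contrast IFNγ with its absence.

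The difference between the SB-3CT change with IFNγ and that without it was fitted over all 12 libraries. All 14 genes over 1 FPKM had a negative difference on the deposited values, where 2 were positive with median ratios, 1 with quantiles and 6 after removal of the length trend. On the deposited values 6 of them were called, COL4A1, COL4A2, COL5A1, COL5A2, COL9A2 and COL18A1, with a median of -0.29 for the 14 and -0.19 for all genes over 1 FPKM. Of all 39, 9 were called (23.1%), 1 higher and 8 lower, where 22.3% of all genes were called, 4.74% higher and 17.6% lower, and among genes over 1 FPKM the background was 32.3%. Again the trend with length bears on the count, since after its removal limma called 0 of the 39 (4 had an unadjusted p under 0.05), where 8.55% of all genes with a length were called, and with median-ratio scaling it called 4. COL6A1 (-0.17, adjusted p = 0.152) and COL6A2 (-0.18, adjusted p = 0.218) were not called, so a difference in their IFNγ changes between cells with and without SB-3CT was not shown.

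Genes that act with the collagens were taken from hand-written lists. Genes with symbols after FAM46B were not analysed here, so each list covers a part of its class. Of 8 genes of collagen synthesis and processing in the table, 4 exceeded 1 FPKM. COLGALT1, which adds galactose to collagen lysines, averaged 95.3 ± 3.0 FPKM (SD, n = 3) in the controls, 113.2 ± 5.5 under SB-3CT, 79.9 ± 4.1 under IFNγ, and 79.7 ± 3.4 under SB-3CT+IFNγ. The list had 1 gene called higher with SB-3CT, 2 lower with IFNγ, 2 lower with SB-3CT+IFNγ against IFNγ and 4 lower against SB-3CT, where 5.37%, 11.0%, 31.5% and 32.7% of all genes were called in these directions. BMP1, a procollagen protease, and CRTAP, a partner of prolyl hydroxylase, fell against SB-3CT by 0.40 and 0.32 on the log2 scale (adjusted p = 0.00421 and 0.00165). Both calls ended with median ratios (-0.17 and -0.07) and after removal of the length trend (-0.21, adjusted p = 0.0940, and -0.04, adjusted p = 0.780), and that of BMP1 with quantiles (-0.19). COLGALT1 fell by 0.50 (adjusted p = 0.00112), and by 0.24 with median ratios and 0.28 after that removal, where it stayed called. CTAGE5, which helps load procollagen for export, fell against IFNγ by 0.33 (adjusted p = 0.0325), a call that ended under each of the other 3 scalings.

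The collagen receptors analysed here included a pair of discoidin domain kinases that moved in opposite directions with IFNγ. DDR2 rose from 8.79 ± 0.31 (SD, n = 3) to 13.7 ± 1.3 FPKM (log2 change 0.58, adjusted p = 0.00404) and DDR1 fell from 4.40 ± 0.22 to 3.46 ± 0.14 FPKM (-0.28, adjusted p = 0.0341). Of 4 receptors, 1 was called higher and 1 lower with IFNγ, 0 were called with SB-3CT alone, and 3 were called lower with SB-3CT+IFNγ against IFNγ, DDR1, DDR2 (-0.55, adjusted p = 0.00405) and CD44 (-0.51, adjusted p = 0.00236). Over all genes 8.46% were called higher and 11.0% lower with IFNγ, 12.2% were called with SB-3CT and 31.5% were called lower with SB-3CT+IFNγ against IFNγ. CD44, which binds hyaluronan and collagen, averaged 99.8 ± 8.0 and 69.8 ± 1.1 FPKM. The IFNγ changes of DDR1 and DDR2 were called under all 4 scalings, whereas none of the 3 falls against IFNγ was called after removal of the trend with length (CD44 at -0.05, adjusted p = 0.406, and DDR1 and DDR2 at 0.00 to 2 decimals). That of DDR1 (-0.28, adjusted p = 0.0491) also ended with median ratios and quantiles.

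Of 14 collagen-binding matrix proteins in the table, 7 exceeded 1 FPKM. EMILIN1, an elastic fibre glycoprotein, fell in each pairwise comparison, with means of 25.2 ± 1.6 FPKM (SD, n = 3) in the controls, 19.4 ± 0.77 under SB-3CT, 18.8 ± 0.72 under IFNγ, and 13.2 ± 0.77 under SB-3CT+IFNγ. The list had 2 genes called lower with SB-3CT, 1 lower with IFNγ, 3 lower with SB-3CT+IFNγ against IFNγ, and 1 higher and 3 lower against SB-3CT, where 6.87%, 11.0% and 31.5% of all genes were called lower in the first 3 comparisons and 7.85% higher and 32.7% lower in the last. BGN, the proteoglycan biglycan, fell from 5.61 ± 0.52 to 3.61 ± 0.16 FPKM with SB-3CT+IFNγ against IFNγ (-0.52, adjusted p = 0.00434), a call that ended with quantile normalization (-0.21, adjusted p = 0.121). EFEMP1, the elastic fibre protein fibulin-3, fell from 1.36 ± 0.36 to 0.51 ± 0.14 FPKM in the same comparison (-0.64, adjusted p = 0.00628) and stayed called under all 4 scalings, whereas EMILIN1 ended its call after removal of the trend (-0.14, adjusted p = 0.133). CTHRC1 was higher with SB-3CT+IFNγ than with SB-3CT (0.43, adjusted p = 0.00209), and ECM1 was lower (-0.39, adjusted p = 0.0139), a call that ended with median ratios (-0.15) and quantiles (-0.24).

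All 4 listed cathepsins that can cleave collagen exceeded a mean of 1 FPKM over the 12 libraries. CTSS did so through the libraries with IFNγ, since its means were 0.87 FPKM in the controls and 0.78 under SB-3CT. CTSS, which also trims the invariant chain of MHC class II, averaged 0.87 ± 0.19 FPKM (SD, n = 3) in the controls and 42.6 ± 1.3 with IFNγ, and CTSL averaged 96.1 ± 2.9 and 122.6 ± 9.7 FPKM. Both were called higher with IFNγ while CTSK, the collagenase of osteoclasts, was called lower at 3.37 ± 0.26 and 2.39 ± 0.12 FPKM. Over all genes 8.46% were called higher and 11.0% lower with IFNγ. CTSL was also called higher with SB-3CT alone and with SB-3CT+IFNγ against either single treatment, and reached 160.2 ± 3.7 FPKM. Of all genes, 5.37% were called higher with SB-3CT and 6.41% with SB-3CT+IFNγ against IFNγ. Against SB-3CT, 7.85% were called higher and 32.7% lower. CTSB was called lower with SB-3CT+IFNγ against SB-3CT, at 46.5 ± 2.7 and 52.0 ± 1.3 FPKM (-0.16, adjusted p = 0.0449), but it was not called under any other scaling and its direction turned with median ratios (0.10) and after removal of the length trend (0.06). Of 10 genes for other proteins with a collagen-like domain, 2 exceeded 1 FPKM. In this list 1 gene was called higher with IFNγ, and 1 higher and 1 lower with SB-3CT. With SB-3CT+IFNγ, 2 were called lower against IFNγ, where 31.5% of all genes were, and 1 higher and 1 lower against SB-3CT. C1QTNF6 rose with IFNγ from 2.36 ± 0.10 to 4.33 ± 0.18 FPKM (0.66, adjusted p = 0.00146). C1QTNF1 averaged 2.16 ± 0.14 FPKM in the controls and 4.14 ± 0.59 with SB-3CT (0.70, adjusted p = 0.0110), and fell by 40.0% with SB-3CT+IFNγ against IFNγ (-0.49, adjusted p = 0.00437, a call that ended with quantile normalization). Its changes with SB-3CT alone and with SB-3CT added to IFNγ were in opposite directions and differed by -1.18 (adjusted p = 0.00139).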

How the data were processed

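RNA-seq values of 12 samples (3 in each of 4 groups) were analysed, with groups taken from the labels. The authors aligned paired reads of 150 bases to hg19 with HISAT2 2.0.5 and calculated FPKM with StringTie 1.3.3 (submitters' processing notes), and the annotation is not given in the sources used here. The deposited values are log2(FPKM + 1), up to 12.16, and FPKM was recovered as 2 to the power of the value minus 1. Columns were matched to samples by name, with 0 columns of values left unused. The total reads per sample are not known, and counting error could not be computed.

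Tests were run in R 4.3.3 with the limma package (3.58.1), by lmFit and then eBayes with a variance trend (unpaired, two-sided, 3 against 3 samples, and all 12 for the difference of differences), with Benjamini-Hochberg adjustment over 4918 genes, and no filter on low values. An exact permutation test of 3 against 3 cannot go below p = 0.1. The scripts were tested on simulated data with known changes. Every collagen gene with a mean over 1 FPKM is named, lower ones where called, and from each list the genes over 1 FPKM with a call, at most 4 per list and comparison. The members, lists and tests were chosen with earlier results of these data known. Gene lengths and positions came from GENCODE release 44 on GRCh37, with 99.1% of symbols matched. Alternatives were an offset of 0.1, a mean of at least 1 FPKM, median-ratio scaling, quantile normalization, removal of each library's trend with transcript length, the replicate number as a block, all groups in one fit, a call rule of fold over 1.5 with unadjusted p under 0.05, and each sample left out. The fold of that rule was taken on the log2(FPKM + 1) scale. Figures were drawn with matplotlib 3.10.9.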

Additional observations from a re-analysis of the deposited data

Results flagged for a closer look

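For 9 collagen genes the SB-3CT change with IFNγ differed from that without it by the interaction term of limma over all 12 samples. The difference was -0.43 for COL4A1, -0.44 for COL4A2, -0.45 for COL5A1, -0.35 for COL5A2, -0.37 for COL9A2, -0.39 for COL18A1, -0.33 for COL7A1, -0.31 for COL22A1 and 0.15 for COL14A1 on the log2(FPKM + 1) scale. COL7A1 averaged 0.445 ± 0.076 FPKM (SD, n = 3) in the controls, 0.607 ± 0.068 with SB-3CT, 0.636 ± 0.064 with IFNγ and 0.447 ± 0.067 with SB-3CT+IFNγ, so its means were higher with either single treatment than without or with both. COL14A1 was highest in the controls and under 0.1 FPKM in every other library, and its call was lost without any of 10 libraries. That of COL9A2 was lost without control 2, control 3 or SB-3CT+IFNγ library 2 (adjusted p of 0.0533 to 0.0555). Of the 9 genes, COL4A1, COL4A2, COL5A1 and COL7A1 alone stayed called with median ratios, and the same 4 with quantiles. The median difference of all genes over 1 FPKM was -0.19, and 0 of the 9 genes were called after removal of the trend with transcript length.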

How the results depend on the processing

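The number of collagen genes called with SB-3CT against control (2) was 5 with quantile normalization, 4 after removal of the length trend, 1 with the replicate block, 0 by fold over 1.5, and 0 to 2 with a sample left out. With IFNγ against control (11) it was 7 with the block, 1 by fold and 7 to 16 with a sample left out. With SB-3CT+IFNγ against IFNγ (14) it was 7 with median-ratio scaling, 6 with quantile normalization, 3 after that removal, 1 by fold and 9 to 15 with a sample left out. With SB-3CT+IFNγ against SB-3CT (17) it was 11 at a mean of at least 1 FPKM, 5 by fold and 14 to 15 with a sample left out. The limit of 1 FPKM left the 25 lower genes untested, and without this limit 11 of the other 14 were called too. The interaction (9) gave 4 with median-ratio scaling, 5 with quantile normalization, 0 after that removal and 7 to 11 with a sample left out. Among changes called as deposited or under the alternative, directions turned with the length trend removed for SB-3CT+IFNγ against IFNγ in COL4A1 (0.031), COL4A2 (0.088), COL12A1 (0.14, and 0.00033 with quantile normalization), COL19A1 (0.069) and COL7A1 (0.029), and for the interaction in COL5A2 (0.019). COL27A1, not called as deposited, was called higher at 0.34. Same-numbered samples correlated at -0.39 to 0.17 in their deviations from group means, so the numbers were not taken to pair the samples. Of 53 single-gene calls, 18 kept an adjusted p under 0.05 in every alternative fit that included the gene, and 7 of these also passed the fold over 1.5 on the log2(FPKM + 1) scale. That fold rule was not applied to the interaction. Absolute depth is unknown, and genes near 0 FPKM rest on few reads. Apart from the genes left untested by the limit of 1 FPKM, why these counts moved was not tested.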
